A study of Homo sapiens with 28 samples.

Results

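SEM cells without any degron were treated for 24 h with the auxin indole-3-acetic acid (IAA). There, 73 protein-coding genes lost at least 50% of their share of library counts. They were selected from 11190 protein-coding genes with a mean CPM (the count scaled to a library total of 1e6) of at least 1 in the untreated cells, out of 57820 genes counted, and the criterion was a log2 ratio of mean CPM, with 0.1 CPM added to each mean, of -1 or lower. The same limits set for a doubling held for 33 genes. The CPM minimum applies to the untreated cells only, so genes that IAA raised from below it are not among the 33. The selected genes were long: their median span was 508.5 kb, against 34.0 kb over all expressed protein-coding genes. In CTCFAID2 cells, where a related auxin degrades CTCF, 21 were lower and 14 higher after 24 h, where 29.5% and 29.2% of all genes tested were lower and higher.

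SEM is a human precursor B-cell acute lymphoblastic leukemia line with the MLL-AF4 fusion, and all 28 RNA-seq libraries came from it. The 24 h set held SEM WT cells with IAA (2 libraries) and without (2 libraries), and CTCFAID2 cells with 5-Ph-IAA (4 libraries) and without (4 libraries). The 6 h set held 4 further lines, which the labels call WT, dZF1, dZF10 and dRBR. Each gave 2 libraries with IAA and 2 without. SEM WT cells carry no degron. The protocol in the labels names DMSO, or IAA and doxycycline (the drug that switches on OsTIR1, the plant receptor of the first-generation degron), for 1 day, whereas the titles of these libraries name IAA only, so the effects of the 2 agents cannot be told apart here. A note in the labels of the IAA libraries speaks of degraded CTCF, which the WT in their titles would not allow, and the grouping follows the titles. CTCFAID2 cells carry endogenous CTCF fused to a miniAID tag and mClover3, a doxycycline-inducible wild-type OsTIR1 and a lentiviral OsTIR1(F74G) that is made constantly, and they received 5-Ph-IAA alone, at 1 µM by the sample titles and at 10 µM by the protocol. The 6 h lines are CTCFAID2 cells with an added CTCF under doxycycline control, which is either full length or lacks a zinc finger (1 in dZF1, 10 in dZF10) or its RNA-binding region (dRBR). The methods name 5-Ph-IAA for 6 h with doxycycline for the added CTCF, while the labels name only IAA, and whether the untreated libraries received doxycycline is not stated. Nothing in the labels says whether replicate libraries stem from different cultures, and p-values may therefore reflect technical spread alone.

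Auxin-inducible degradation works through a plant F-box protein that binds a tagged protein in the presence of an auxin and hands it to the ubiquitin machinery. Cells without the tag and the receptor are the control for what the auxin does by itself. Very long genes take RNA polymerase II hours to transcribe, mostly through introns, and their output is known to be sensitive to losses of elongation factors or topoisomerases, while several of them coincide with common fragile sites. Many very long human genes encode adhesion molecules, channels and signaling scaffolds that are best known from neurons.

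The WT contrast at 24 h chose the genes, so their values in it are a description and carry no test. Their log2 ratios ran from -4.33 to -1.002 with a median of -1.30, beside a median of -0.004 over the 11190 expressed genes. For all 73 genes both libraries with IAA lay below both libraries without it, which held for 30.7% of the expressed genes. Just inside the limit stood FBXL17, NELL2, POU5F2, NCKAP5 and DNAH6, with log2 ratios between -1.007 and -1.002. Just outside stood PCLO at -0.988, GTDC1 at -0.976, COBLL1 at -0.969, PRKCA at -0.965 and ABCD2 at -0.955, so the limit cuts through a continuous range. Of these outsiders PCLO spans 409 kb and PRKCA 508 kb, as long as the selected genes, while ABCD2 spans 69.8 kb. Together the selected genes held 0.0338% and 0.0313% of all counts in the IAA libraries of SEM WT cells, against 0.0777% and 0.0787% without IAA.

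Promoter sequence was taken from RefSeq (GRCh38.p14), which had an entry for 57 of the 73 genes (78.1%). This is under the 80% asked of a comparison of promoter features between the selected genes and others, so that comparison is void. The 250 bases before the RefSeq start are shown for 2 of the steepest and the 2 most abundant genes, since these carry the description below. The RefSeq start can differ from the end of the annotated span. Capitals mark the letters TATAAA (or TTTATA on the other strand) and GGGCGG (or CCGCCC), which 5.21% and 68.2% of 9157 expressed genes with an entry held in the same window. GPC6 (chr13:93226557-93226806, plus strand, 37.6% G and C) held 1 TATAAA, MDGA2 (chr14:47343247-47343496, minus strand, 36.4% G and C) held neither, LRBA (chr4:151015728-151015977, minus strand, 76.4% G and C) held 1 CCGCCC and LPP (chr3:188153648-188153897, plus strand, 66.4% G and C) held neither. These are matches of letters and say nothing on binding.
GPC6: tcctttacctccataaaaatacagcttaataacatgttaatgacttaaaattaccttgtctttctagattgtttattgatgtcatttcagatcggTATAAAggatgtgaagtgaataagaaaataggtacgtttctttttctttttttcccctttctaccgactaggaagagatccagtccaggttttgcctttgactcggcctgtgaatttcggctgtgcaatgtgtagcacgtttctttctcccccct
MDGA2: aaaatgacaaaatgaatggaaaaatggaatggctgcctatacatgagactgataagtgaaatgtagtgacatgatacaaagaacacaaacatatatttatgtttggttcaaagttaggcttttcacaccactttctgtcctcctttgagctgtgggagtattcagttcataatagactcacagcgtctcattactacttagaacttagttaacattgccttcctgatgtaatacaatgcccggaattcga
LRBA: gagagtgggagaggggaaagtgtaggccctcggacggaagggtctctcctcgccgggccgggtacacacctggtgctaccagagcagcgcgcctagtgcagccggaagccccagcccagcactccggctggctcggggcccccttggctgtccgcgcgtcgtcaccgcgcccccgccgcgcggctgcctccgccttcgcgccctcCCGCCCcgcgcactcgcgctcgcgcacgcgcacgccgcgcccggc
LPP: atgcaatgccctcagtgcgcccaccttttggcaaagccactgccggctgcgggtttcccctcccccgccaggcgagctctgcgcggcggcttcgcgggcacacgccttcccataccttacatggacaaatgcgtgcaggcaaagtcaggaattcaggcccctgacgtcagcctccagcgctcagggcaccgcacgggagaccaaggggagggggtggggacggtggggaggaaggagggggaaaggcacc

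Libraries held between 25.8 and 60.7 counts for each CPM (median 48.4), which is their depth in units of 1e6 counts. B-lineage markers were present: 10 or 11 of 12 reached a mean of 1 CPM in every group, and the summed level was 1032 to 1066 CPM in SEM WT cells with IAA and 1099 to 1102 CPM without. MME, a marker that some B-cell leukemias carry, was at 0 in both. Of 6 red cell markers 0 reached 1 CPM in any group, and HBA1 and HBA2 were at 0 throughout. Of 9 myeloid markers 3 did so in every group, with sums of 47.4 to 51.6 CPM with IAA and 65.4 to 66.5 CPM without in SEM WT cells, and S100A8 was at 0. At 6 h the myeloid sum was 19.2 to 24.8 CPM with IAA and 31.7 to 44.4 CPM without. Of 8 T and NK cell markers 1 reached 1 CPM (sum 14.9 to 15.1 CPM with IAA and 14.0 to 14.2 CPM without), and CD3D and CD8B were at 0. Mitochondrial mRNAs moved with the treatment in SEM WT cells, at 0.204 to 0.215% of counts with IAA and 0.295 to 0.31% without, and the part of the mitochondrial and myeloid values in the result was not tested. SEM WT libraries had fewer non-whole counts (2.73 to 2.82% of genes) than CTCFAID2 libraries (7.08 to 7.84%), with or without auxin, so levels are compared within a line. CTCF RNA changed by -0.10 on the log2 scale in SEM WT cells (adjusted p = 0.0562), and rose by 0.78 (adjusted p = 6.96e-12) in CTCFAID2 cells and by 0.64 (adjusted p = 3.54e-07) over the 6 h lines (limma). The degron acts on the protein, so these RNA values do not check it.

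The steepest falls, apart from 2 readthrough models described further on, included genes of the extracellular matrix, cell adhesion and ion channels. GPC6, a glypican that carries heparan sulfate on the cell surface (GRCh37 chromosome 13, 93879060 to 95060274, plus strand, 1181 kb), had 1.31 and 1.6 CPM with IAA, against 8.88 and 8.90 CPM without, a log2 ratio of -2.53. MDGA2, an immunoglobulin-type adhesion protein that binds neuroligins, had 0.766 and 0.673 CPM with IAA, against 4.33 and 4.85 CPM without. PARD3B, a polarity protein, had 0.241 and 0.347 CPM with IAA, against 1.77 and 1.94 CPM without. A gap between the groups follows from the selection for these genes, which used the same libraries. COL5A2, a chain of type V collagen, had 0.591 and 0.424 CPM with IAA, against 2.73 and 2.82 CPM without. NELL1, a secreted protein with EGF-like repeats, had 0.241 and 0.193 CPM with IAA, against 1.15 and 1.47 CPM without. PTPRD, a receptor tyrosine phosphatase and the longest of the genes at 2299 kb (GRCh37 chromosome 9, 8314246 to 10613002, minus strand), had 1.38 and 1.19 CPM with IAA, against 5.53 and 6.07 CPM without. These are levels of RNA in bulk cells, in which fewer expressing cells and less RNA per cell cannot be told apart. CADPS2, which primes dense-core vesicles for release, had 3.13 and 3.24 CPM with IAA, against 13.3 and 13.5 CPM without. FGF13, an intracellular FGF that binds sodium channels, had 0.306 and 0.405 CPM with IAA, against 1.86 and 1.55 CPM without. CACNA2D1, an auxiliary subunit of calcium channels, had 2.47 and 1.79 CPM with IAA, against 7.96 and 8.77 CPM without, and the transcription factor FOXP2 had 1.99 and 2.10 CPM with IAA, against 7.66 and 8.28 CPM without. The heat map of all 73 genes shows the same loss in both IAA libraries of SEM WT cells and no such block in the other lines.

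**Figure D1:**
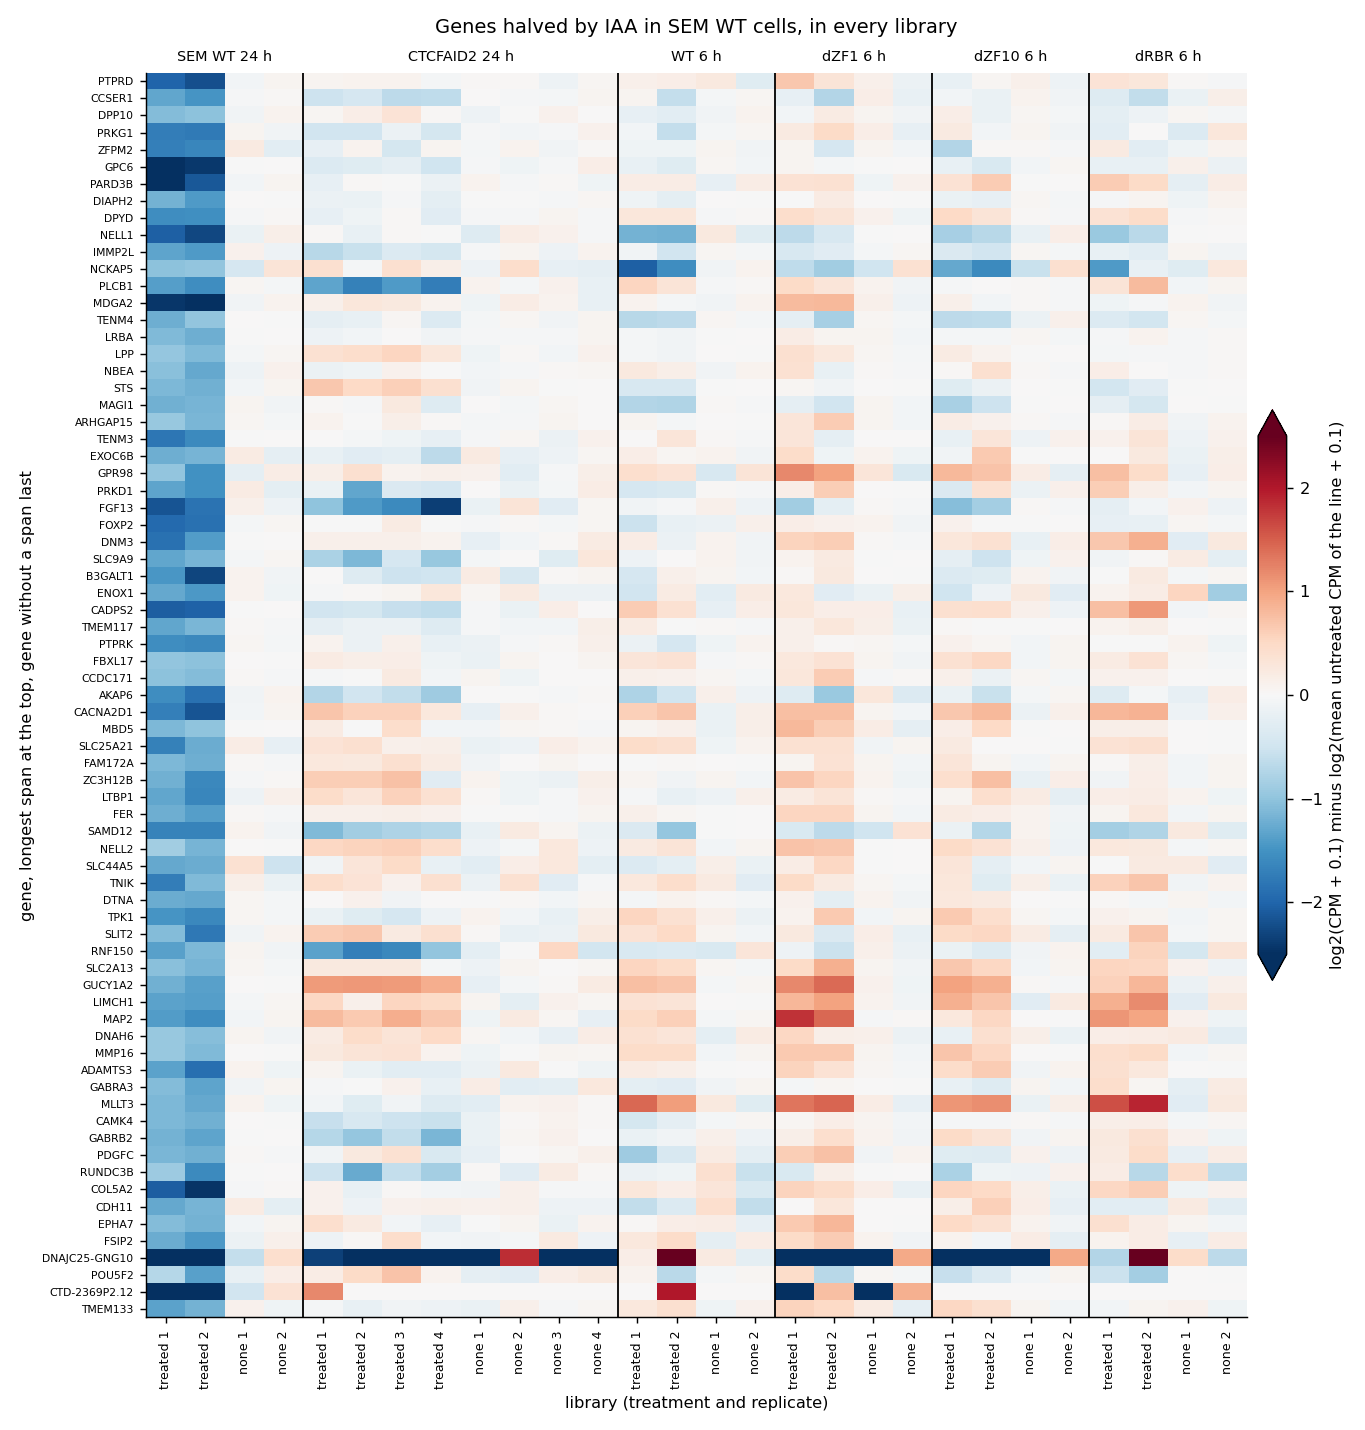
Each row is 1 of the 73 genes, ordered by span with the longest at the top, and each column 1 of the 28 libraries, grouped by line with treated libraries left of untreated ones. Color is log2(CPM + 0.1) relative to the untreated mean of the same line. Both IAA libraries of SEM WT cells are blue in every row, whereas the treated libraries of the other lines hold both colors, and DNAJC25-GNG10 and CTD-2369P2.12, the 2 readthrough models near the bottom, switch between libraries of the same group.

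Most of the genes were lowly expressed, with a median of 3.37 CPM without IAA, against 31.2 CPM over all expressed genes. On the scale that corrects for length the medians were 0.47 and 5.81 TPM (transcript abundance scaled by length and depth). The 8 most abundant genes give the ratios with the most reads behind them. LRBA, a BEACH-domain protein of vesicle traffic that protects CTLA4 from degradation (GRCh37 chromosome 4, 151185587 to 151936879, minus strand, 751 kb), had 72.5 and 67.2 CPM with IAA, against 156 and 158 CPM without, a log2 ratio of -1.16. LPP, a LIM-domain protein of focal adhesions, had 56.2 and 50.9 CPM with IAA, against 107 and 113 CPM without. DIAPH2, a formin that nucleates actin, had 18.4 and 15.6 CPM with IAA, against 42.3 and 41.6 CPM without. The selection thus held abundant genes as well as genes near the lower CPM limit. The other 5 were MMP16, a membrane-bound matrix metalloproteinase, ARHGAP15, a GTPase-activating protein for Rac, the tyrosine kinase FER, FAM172A, and DPYD, which starts pyrimidine breakdown, and their untreated means ran from 19.2 to 34.7 CPM. DPYD fell furthest of these 8, with 6.52 and 6.57 CPM with IAA, against 18.8 and 19.7 CPM without (log2 ratio -1.54).

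The 73 genes were long, mostly through their introns. Spans are those of Gencode models on GRCh37, which were found for 72 of the 73 genes (TMEM133 had none), and a span counts exons and introns from the first start to the last end. The interquartile range of the span was 343 to 713 kb in the 73 genes and 14.1 to 79.5 kb over 11025 expressed genes. Exonic length differed less, with medians of 10164 and 5532 bases, while the longest intron had medians of 132 and 9.18 kb and introns made up 97.9% and 83.2% of the span. Of the 390 expressed genes of 300 kb or more, 57 (14.6%) were among the 73, and they made up 79.2% of those with a span. Another 11 came from the 1783 genes of 100 to 300 kb, 2 from the 3772 of 30 to 100 kb, 0 from the 3120 of 10 to 30 kb and 2 from the 1960 of under 10 kb.

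Long genes outside the selection were lower as well. In SEM WT cells the median log2 ratio was 0.05 in genes under 10 kb, 0.03 at 10 to 30 kb, -0.005 at 30 to 100 kb, -0.08 at 100 to 300 kb and -0.37 at 300 kb or more. In this longest class 362 of 390 genes (92.8%) had a ratio below 0, and 17 of the 18 genes of at least 1 Mb did so, 7 of which were selected. The 333 genes of 300 kb or more that were not selected had a median fitted log2 fold change of -0.30, and long genes outside the selection took 1.34% and 1.26% of counts with IAA, against 1.56% and 1.55% without. A few long genes went the other way, with ARHGEF3 (352 kb) at a log2 ratio of 1.11 and MAGI2 (1437 kb) at 0.27. At 300 kb or more the median ratio was -0.35 in the 341 genes with exonic length above the median of expressed genes and -0.38 in the 49 genes at or below it. Across genes Spearman's rho with the ratio was -0.31 for span and -0.16 for exonic length over 11025 genes, and -0.28 and 0.02 over the 390 genes of 300 kb or more. Genes are not independent replicates, and all points share the same 4 libraries. Among the 72 selected genes with a span rho was -0.16, in a range already narrowed by the limit. The other very long genes selected were CCSER1 (1478 kb), DPP10 (1404 kb), a partner of potassium channels, PRKG1 (1308 kb), a cGMP-dependent kinase, and ZFPM2 (1214 kb), a cofactor of GATA factors. DPP10 had 5.67 and 5.9 CPM with IAA, against 11.4 and 12.8 CPM without.

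**Figure D2:**
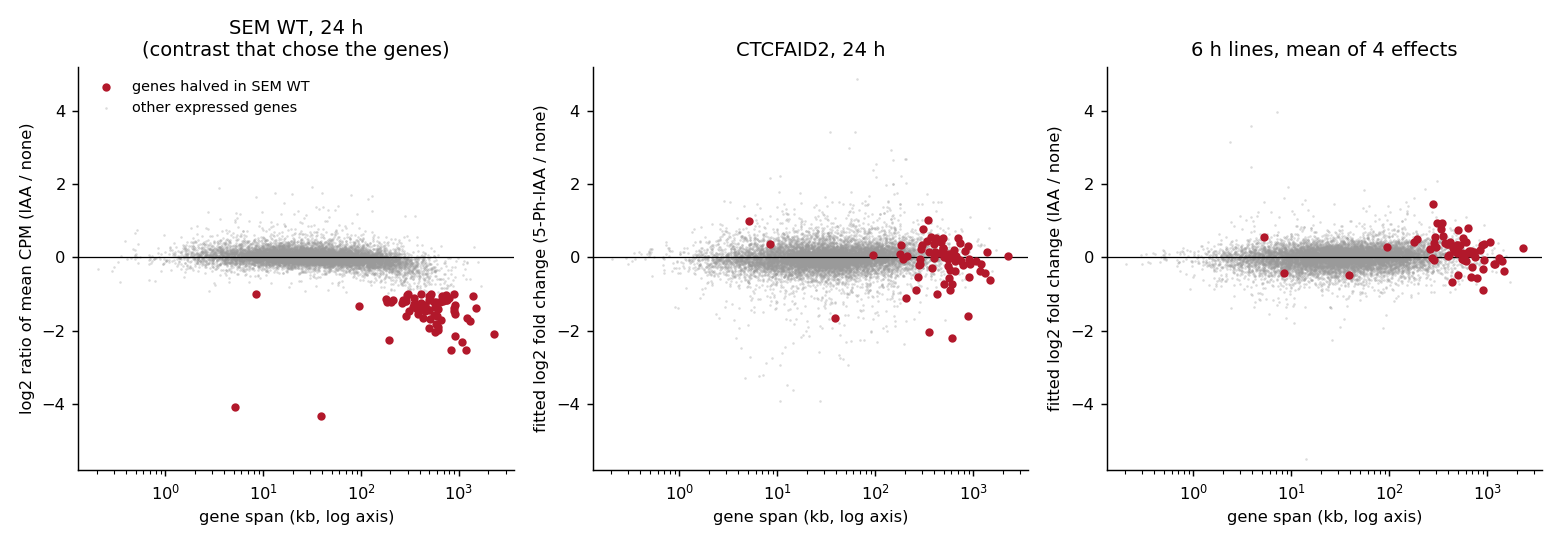
Each point is an expressed protein-coding gene, with its span in kb on a log axis and its response on the vertical axis, as log2 ratio of mean CPM in SEM WT cells (left) and as fitted log2 fold change in CTCFAID2 cells (middle) and over the 6 h lines (right). Red points are the genes halved in SEM WT cells. In SEM WT cells the gray cloud bends below 0 beyond about 100 kb, whereas in the other panels the red points lie on both sides of 0.

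Among the known roles of the genes, the lists gave the following counts, none of which is a test. Over all expressed protein-coding genes 73 of 11190 were selected, and of those of 300 kb or more 57 of 390 (14.6%). The lists were not matched for gene span, so their counts are not separated from span. They are also incomplete, so a count covers the listed genes and not every selected gene of that role. GABRB2, GABRA3, SLC2A13, MMP16, GUCY1A2 and FER, for example, were selected but are on no list. Of the large genes at common fragile sites 14 were expressed and 7 were selected: LPP, DIAPH2, DPYD, NBEA, IMMP2L, MAGI1 and PRKG1. Of the adhesion and synaptic membrane proteins 8 of 19 were selected, among them PTPRK, a receptor phosphatase of cell contacts with 5.27 and 5.05 CPM with IAA, against 16.2 and 15.1 CPM without, and NBEA, a neuronal scaffold related to LRBA with 7.42 and 6.28 CPM with IAA, against 14.2 and 16.7 CPM without. The others of this list were CADPS2, TENM3, TENM4, PTPRD, MDGA2 and EPHA7. Of the matrix and heparan sulfate genes 5 of 24 were selected (GPC6, NELL2, COL5A2, B3GALT1 and NELL1), and of the ion channels, transporters and receptors 3 of 16 (CACNA2D1, SLC9A9 and SLC44A5). Of the polarity and cytoskeleton genes 5 of 44 were selected (DIAPH2, ARHGAP15, MAGI1, DNAH6 and PARD3B), and of the kinase and cyclic nucleotide signaling genes 6 of 31. The last were CAMK4, a calmodulin-dependent kinase, PLCB1, a phospholipase C, AKAP6, an anchor of protein kinase A, PRKD1, PRKG1 and FGF13. No B-lineage gene was selected, of 11 expressed. MLLT3, a component of the super elongation complex, was the 1 selected gene of 50 expressed elongation factors and topoisomerases, with 0.525 and 0.462 CPM with IAA, against 1.35 and 1.17 CPM without. The remaining 42 genes were on none of the lists, which does not mean that they lack these roles.

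Of the other 49 elongation factors and topoisomerases, 9 were lower and 0 higher in SEM WT cells at an adjusted p of at most 0.05 (limma), where 9.57% and 9.35% of all tested genes were lower and higher, and the median log2 fold change was -0.06. At an unadjusted p under 0.05 the counts were 19 and 0. edgeR gave 8 and 0 and DESeq2 10 and 0. Shares over all genes are not given for the unadjusted, edgeR and DESeq2 counts, so these have nothing to be set against. The 9 were ELL2 (-0.33), TOP1 (-0.24), TOP2B (-0.23), SUPT16H (-0.20), SCAF8 (-0.16), POLR2B (-0.15), SSRP1 (-0.15), RTF1 (-0.15) and SFPQ (-0.11). ELL2 is part of the super elongation complex, TOP1 and TOP2B relieve torsion ahead of the polymerase, and SUPT16H and SSRP1 form the histone chaperone FACT. In CTCFAID2 cells 10 of 50 genes of this list were lower and 16 higher, where 29.5% and 29.2% of all tested genes were, and over the 6 h lines 10 were lower and 11 higher, MLLT3 among the last, where 26.4% and 25.1% were. The part of these genes in the loss of long transcripts was not tested.

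Short genes among the 73 were few and mostly uncertain. DNAJC25-GNG10 (38.8 kb) is a readthrough model that shares its exons with DNAJC25 and GNG10, and its expected count is a division of shared reads. It had 0.148 and 0.168 CPM with IAA, against 3.34 and 6.83 CPM without, but over all 28 libraries it stood at 2.01 to 6.83 CPM in 7 and at 0.211 CPM or less in the other 21, in both treated and untreated libraries of the degron lines. CTD-2369P2.12 (5.21 kb), which overlaps FDX1L and RAVER1, was at 0 in 22 of the 28 libraries, both IAA libraries of SEM WT cells included, and at 1.12 and 2.06 CPM in the untreated ones. POU5F2 (8.38 kb) is a gene without introns in its model that lies inside FAM172A and shares exonic bases with it, so its 2.01 and 1.25 CPM with IAA, against 2.97 and 3.78 CPM without, cannot be told apart from reads of the longer gene. FSIP2 (94.5 kb), a gene of the sperm tail's fibrous sheath, had 0.591 and 0.501 CPM with IAA, against 1.37 and 1.68 CPM without. In all, 11 of the genes share exonic bases with another gene and are uncertain to that extent, because the use of strand in counting is not stated. Besides DNAJC25-GNG10, CTD-2369P2.12 and POU5F2 these are TENM3, SLC25A21, ZC3H12B, GPR98, FAM172A, STS, MBD5 and LPP, whereas FSIP2 shares none. TMEM133, which had no model, could not be checked for overlap and is uncertain as well. Without the genes that share exonic bases the median span was 523 kb in 61 selected genes, against 36.0 kb in 7826 expressed genes.

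In CTCFAID2 cells treated with 5-Ph-IAA for 24 h, libraries that had no part in the selection, the same genes scattered around no change. All 73 were tested, but 11 of them never exceeded 1 CPM in a CTCFAID2 library and passed the filter of 1 CPM only through SEM WT libraries, which were fitted with them. At an adjusted p of at most 0.05 21 were lower and 14 higher (28.8% and 19.2%), where 29.5% of all 13973 genes tested were lower and 29.2% were higher. At 2-fold or more the counts were 4 lower and 1 higher, with 1.67% and 1.89% over all genes. Of these 4, FGF13, RNF150 and RUNDC3B were among the 11 that passed only through SEM WT libraries. Of the 62 genes above 1 CPM in a CTCFAID2 library, a restriction chosen after the data were seen, 17 were lower and 13 higher (27.4% and 21.0%), where 29.7% were lower and 29.7% higher of the 13647 genes above that level, and at 2-fold or more 1 was lower (PLCB1) and 1 higher. The median log2 fold change was -0.01 in the 73 genes and -0.002 over all tested genes, and the summed share of counts was 0.0638 to 0.0731% with 5-Ph-IAA and 0.0622 to 0.0674% without. Every treated library lay below every untreated one for 17 of the genes and above for 12, where 27% and 29.3% of the expressed genes stood apart in this way.

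The genes that fell in CTCFAID2 cells included signaling genes. PLCB1 had 1.5, 1.14, 1.41 and 1.11 CPM with 5-Ph-IAA, against 4.2, 3.8, 4.26 and 3.45 CPM without. Its log2 fold change was -1.61 with an SE of 0.12 and an adjusted p of 5.95e-08 by limma. FGF13 had 0.254, 0.166, 0.135 and 0.039 CPM with 5-Ph-IAA, against 0.53, 0.793, 0.487 and 0.636 CPM without, with a fitted log2 fold change of -2.19. RNF150 had 0.101, 0.0552, 0.0673 and 0.156 CPM with 5-Ph-IAA, against 0.329, 0.406, 0.629 and 0.268 CPM without (-2.04), and RUNDC3B had a log2 fold change of -1.12. The treated and untreated libraries did not overlap in PLCB1, FGF13, RNF150 or RUNDC3B, but the last 3 stood below 1 CPM in every CTCFAID2 library and were tested only through SEM WT libraries. All 6 selected genes of the kinase and cyclic nucleotide list were lower, where 29.5% of all genes tested were. FGF13 and PRKD1 among them stood below 1 CPM in the CTCFAID2 libraries and were tested only through SEM WT libraries. Besides PLCB1 and FGF13 the genes were AKAP6 (-0.73, adjusted p = 1.86e-05), PRKD1 (-0.73), CAMK4 (-0.54, adjusted p = 5.24e-06) and PRKG1 (-0.43, adjusted p = 0.00341). Over all 31 tested genes of that list 11 fell and 8 rose. The list does not hold every selected signaling gene. It lacks GUCY1A2, a guanylate cyclase subunit that rose, and the tyrosine kinase FER. Of the 7 fragile-site genes selected 4 fell (DPYD, DIAPH2, PRKG1 and IMMP2L) and LPP rose, and of the 8 adhesion genes CADPS2 and TENM4 fell. Over all genes tested 29.5% were lower and 29.2% higher. Over all 17 tested genes of the fragile-site list 4 were lower and 7 higher, and over 25 of the adhesion list 6 and 6.

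Others rose although IAA had halved them in SEM WT cells. GUCY1A2, a subunit of the nitric oxide receptor guanylate cyclase, had 12.1, 12.2, 12 and 10.8 CPM with 5-Ph-IAA, against 4.90, 5.49, 5.82 and 6.52 CPM without, and rose by 1.03 ± 0.068 on the log2 scale (SE, limma, adjusted p = 1.61e-08). In SEM WT cells it had 6.17 and 5.53 CPM with IAA, against 14.4 and 14.1 CPM without. MAP2, a protein of dendritic microtubules, rose by 0.79 in CTCFAID2 cells (adjusted p = 2.15e-05) and NELL2 by 0.54 (adjusted p = 8.17e-05). SLIT2, a secreted guidance cue, was higher by 0.55 (adjusted p = 0.0364). It stayed below 1 CPM in these cells, however, and was tested only through an untreated SEM WT library. MAP2 had 3.26 to 3.90 CPM with 5-Ph-IAA and 1.76 to 2.40 CPM without. The abundant LPP also rose, with 113, 119, 127 and 106 CPM with 5-Ph-IAA, against 81.1, 89.2, 83.6 and 94.4 CPM without (0.39, adjusted p = 1.39e-05). LRBA had 130, 134, 143 and 133 CPM with 5-Ph-IAA, against 139, 139, 139 and 148 CPM without, a fall of 0.09 on the log2 scale (adjusted p = 0.0271) with overlapping groups. Of the steepest genes in SEM WT cells, GPC6 fell by 0.36 (adjusted p = 0.000356) and CADPS2 by 0.56 (adjusted p = 9.52e-05). MDGA2, PARD3B, COL5A2, NELL1, PTPRD and FOXP2 did not pass the test, with log2 fold changes between -0.10 and 0.18. CADPS2 stood at 2.80 to 3.55 CPM in untreated CTCFAID2 cells and at 13.3 and 13.5 CPM in untreated SEM WT cells. Libraries of the 2 lines also differed in their share of non-whole counts, so this gap is not read as a difference between the lines. The difference between the effects in the lines was not tested, since the selection used the effect in SEM WT cells.

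**Figure D3:**
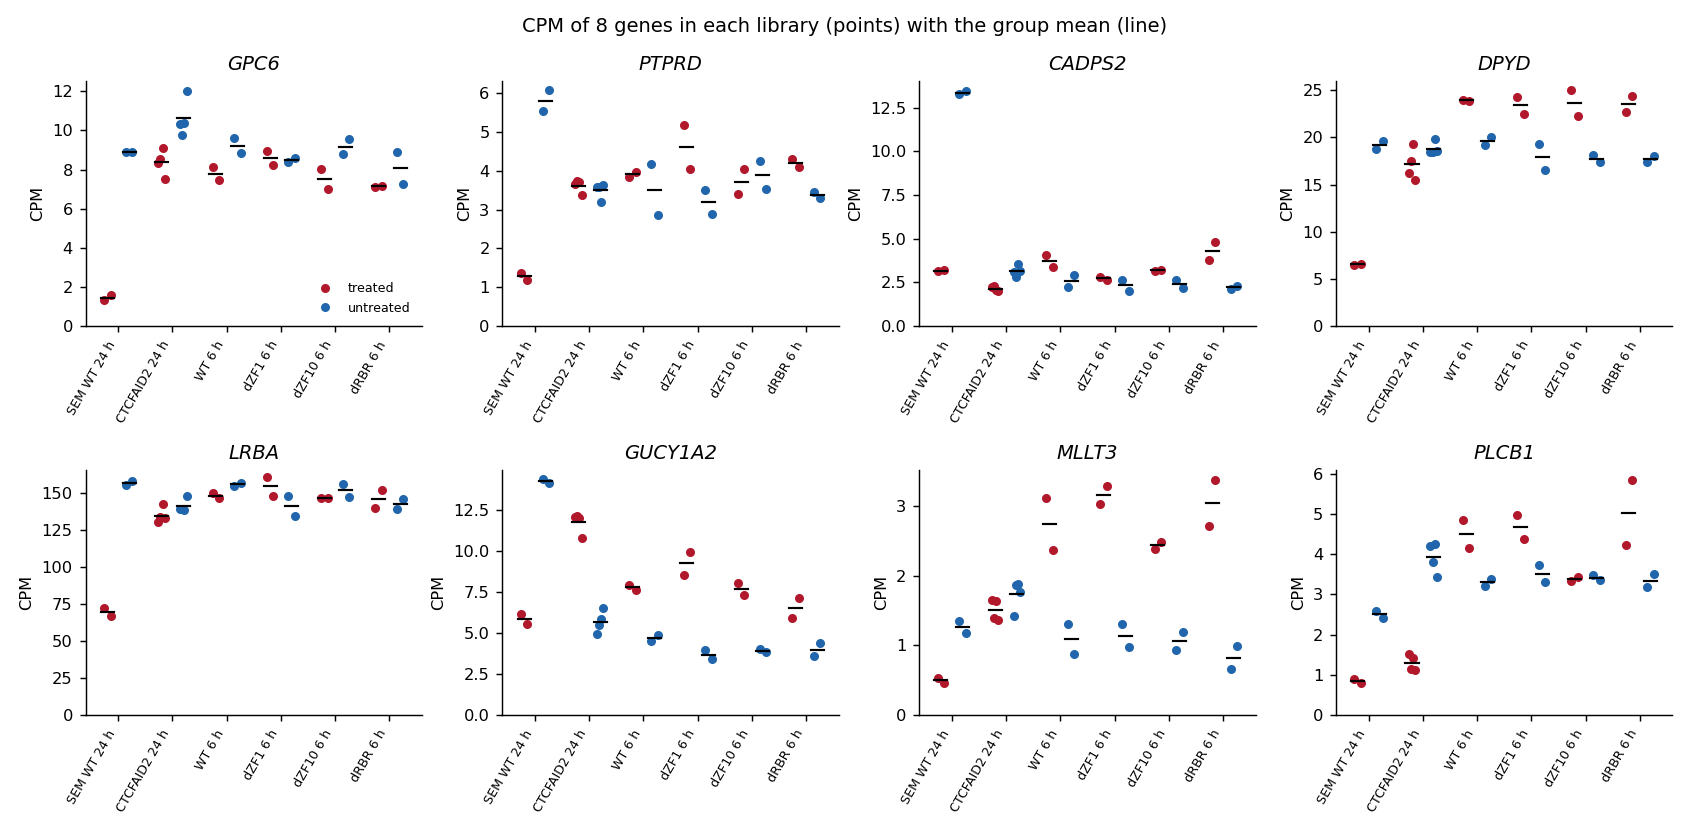
CPM of 8 of the genes in every library (points), with the group mean as a line, treated libraries in red left of untreated ones in blue, and each vertical axis starting at 0. SEM WT cells with IAA lie below those without in each panel, GUCY1A2 is higher with auxin in CTCFAID2 cells and all 6 h lines, MLLT3 in the 6 h lines, and PLCB1 is lower in CTCFAID2 cells.

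After 6 h with IAA, the lines with an added CTCF gave small changes that were more often upward. Of the 73 genes 67 passed the filter in this set. The 6 left out (FGF13, RNF150, CDH11, RUNDC3B, PDGFC and NCKAP5) stayed below 1 CPM in all 16 libraries, with a highest value of 0.919 CPM in PDGFC. For the mean effect of the 4 lines 32 genes were higher and 10 lower (47.8% and 14.9%) at an adjusted p of at most 0.05, where 25.1% of all 13902 genes tested were higher and 26.4% lower. The median log2 fold change was 0.18, against -0.009 over all genes tested. A value above 0 was found in 46 of 67 genes (68.7%), where 51.7% of 11095 expressed genes had one. In the single lines the counts were 7 higher and 4 lower in the WT line (6.45% and 7.21% over all genes), 25 and 2 in the dZF1 line (17.1% and 16.4%), 14 and 4 in the dZF10 line (8.88% and 9.24%) and 11 and 2 in the dRBR line (4.8% and 5.68%). The medians were 0.08, 0.30, 0.07 and 0.16, in the same order. Leaving out any 1 library of the line, so that the lone library of that group is assumed to vary like the other groups, gave 1 to 4 higher in the WT line, 13 to 27 in the dZF1 line, 6 to 9 in the dZF10 line and 3 to 9 in the dRBR line, whereas the mean effect gave 25 to 34 higher and 7 to 10 lower. The lowest of these counts came without untreated replicate 1 in the WT and dRBR lines and without untreated replicate 2 in the dZF1 and dZF10 lines. In the dZF1 line, fitted by itself, 0 of 63 genes passed (limma), with only 2 calls among 13565 genes. At an unadjusted p under 0.05 20 of the 63 were higher and 2 lower, and the unadjusted share over all genes is not given.

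The difference of the effect in a deletion line from that in the WT line passed the test for 0 of the 67 genes in any of the 3 deletion lines (limma), where 46, 6 and 0 of 13902 genes passed for dZF1, dZF10 and dRBR. At an unadjusted p under 0.05 the counts among the 67 were 19, 4 and 6. The unadjusted share over all genes is not given, so these counts do not show a response particular to the 67 genes. edgeR gave 0 calls in each line, and DESeq2 gave 2 in dZF1, FER (0.43, adjusted p = 0.0342) and LPP (0.39, adjusted p = 0.00344), and 0 in the others. Over all 13902 genes DESeq2 called 401 in dZF1, 13 in dZF10 and 1 in dRBR. The share of counts in the 67 and the other 6 genes together was 0.0748 to 0.0772% with IAA and 0.0611 to 0.0657% without in the dZF1 line, and 0.0698 to 0.0712% with IAA and 0.0704 to 0.0713% without in the WT line. It was 0.0695 to 0.0707% with IAA and 0.0658 to 0.0664% without in the dZF10 line, and 0.0662 to 0.0701% with IAA and 0.063 to 0.0652% without in the dRBR line. The groups thus overlapped in the WT line and stood apart in the other 3. By CPM, every treated library lay above every untreated one for 43 genes in dZF1, 33 in dRBR, 28 in dZF10 and 24 in the WT line, where 33.3%, 29.5%, 35.1% and 36.9% of expressed genes did so. The reverse held for 7, 11, 18 and 22 of the 73 genes, where the shares over expressed genes were 26.5%, 34%, 31% and 30.6%.

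MLLT3 had the highest mean effect of the 67 genes at 6 h, 1.45 on the log2 scale with an SE of 0.12 and an adjusted p of 2.57e-06 by limma. It had 3.12 and 2.36 CPM with IAA, against 1.31 and 0.871 CPM without in the WT line, and 3.04 and 3.3 CPM with IAA, against 1.3 and 0.971 CPM without in the dZF1 line. In the dZF10 line it had 2.39 and 2.49 CPM with IAA, against 0.929 and 1.19 CPM without, and in the dRBR line 2.71 and 3.38 CPM with IAA, against 0.658 and 0.99 CPM without. The rise passed the test in each of the 4 lines, while in CTCFAID2 cells at 24 h MLLT3 had a log2 fold change of -0.21 (adjusted p = 0.131). GUCY1A2 rose by 0.93 ± 0.069 (SE, adjusted p = 9.78e-07) and MAP2 by 0.93 ± 0.082 (SE, adjusted p = 3.39e-06), as both did at 24 h in CTCFAID2 cells. GUCY1A2 had 7.92 and 7.64 CPM with IAA, against 4.50 and 4.86 CPM without in the WT line, and its groups stood apart in the other 3 lines too. CACNA2D1 (mean effect 0.75) and MMP16 (0.54) rose in each of the 4 lines and in CTCFAID2 cells. DPYD rose in each of the 4 lines (mean effect 0.37, adjusted p = 2.21e-05) and fell by 0.15 in CTCFAID2 cells (adjusted p = 0.0279).

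Falls at 6 h were led by NELL1, SAMD12 and TENM4. NELL1 had 0.63 and 0.621 CPM with IAA, against 1.88 and 1.24 CPM without in the WT line, and a mean effect of -0.89 ± 0.12 (SE, limma, adjusted p = 6.49e-05). TENM4, a teneurin of cell contacts, had 12.4 and 12.7 CPM with IAA, against 20.8 and 19.5 CPM without in the WT line, and a mean effect of -0.57 (adjusted p = 6.44e-05). SAMD12 had a mean effect of -0.66 (adjusted p = 0.0108). MAGI1, a scaffold of tight junctions, fell by 0.52 (adjusted p = 2.29e-05), and passed the test in the WT, dZF1 and dZF10 lines. Of the steepest genes in SEM WT cells, GPC6 fell by 0.17 at 6 h (adjusted p = 0.0234), whereas MDGA2 (0.20), PARD3B (0.41), COL5A2 (0.49), PTPRD (0.25) and CADPS2 (0.53) had higher mean effects that passed the test. For MDGA2 this came from the dZF1 line (0.82), with 0.01 in the WT line, 0.01 in dZF10 and -0.04 in dRBR, and PTPRD had -0.03 in dZF10. LRBA had a mean effect of 0.01 ± 0.029 (SE, adjusted p = 0.823). Of the 22 genes called both at 24 h in CTCFAID2 cells and at 6 h, 10 were higher and 6 lower in both, 5 were lower at 24 h and higher at 6 h and 1 was the other way round. Over the 3950 expressed genes called in both, 1432 were higher and 1321 lower in both.

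**Figure D4:**
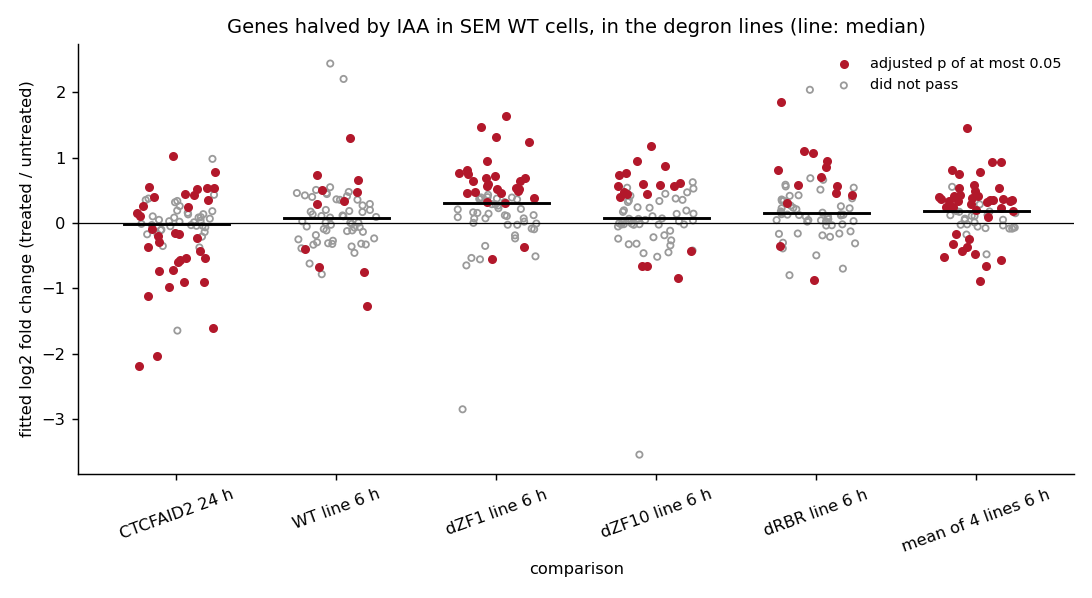
Fitted log2 fold change (treated over untreated) of the genes halved in SEM WT cells, with 73 genes in CTCFAID2 cells and 67 in the 6 h lines. Red points passed an adjusted p of 0.05, open points did not, and the black line is the median, which is -0.01 in CTCFAID2 cells and 0.08, 0.30, 0.07, 0.16 and 0.18 in the 6 h comparisons. Sideways position within a column carries no value.

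The degron lines gave other medians by gene span, and the difference from SEM WT cells was not tested. In CTCFAID2 cells the median fitted log2 fold change was -0.06 in genes under 10 kb and 0.07 in the 390 genes of 300 kb or more, of which 39.5% were higher and 26.7% lower. At 6 h the 385 genes of the longest class had medians of 0.19 in dZF1, 0.06 in dRBR, 0.03 in dZF10 and -0.01 in the WT line, and 41.3% of these genes were higher and 24.9% lower by the mean effect. Of the 331 long genes that were not selected 40.8% were higher and 26.3% lower by that effect. In SEM WT cells the fitted median of the longest class was -0.36, and no class of any degron line was as low. The lowest was -0.13, in genes under 10 kb in the dZF1 line. The comparisons of the lines were fitted in 2 sets with different lines and times, so these medians stand side by side without a test.

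**Figure D5:**
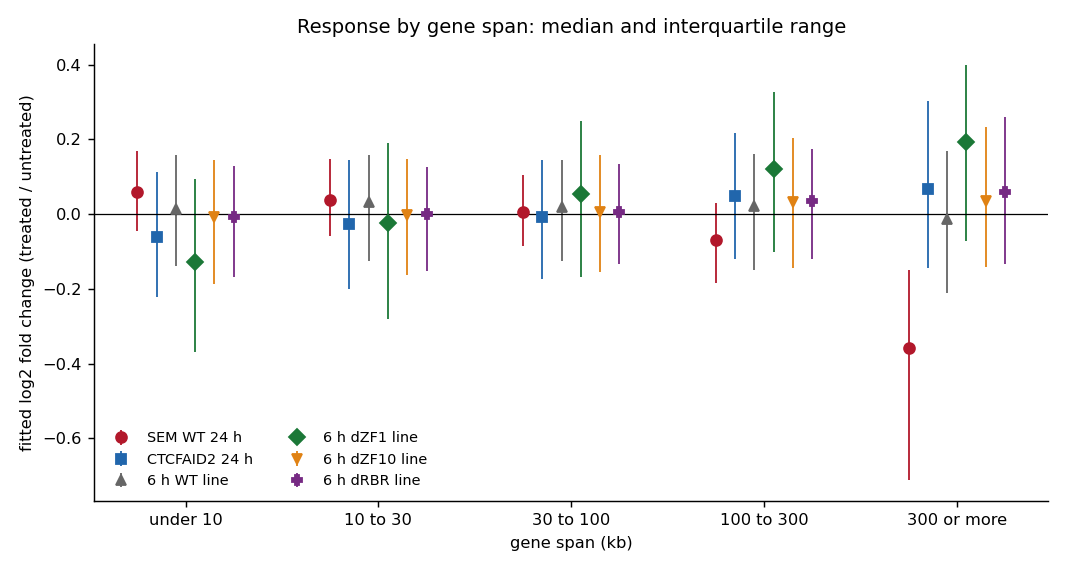
Median fitted log2 fold change (points) and interquartile range (bars) of expressed protein-coding genes in 5 classes of gene span, for the 6 comparisons of treated against untreated cells. SEM WT cells decline to -0.36 at 300 kb or more, where the other medians lie between -0.01 and 0.19.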

How the data were processed

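Expression was analysed from RNA-seq of 28 SEM libraries. Per the labels, trimming by the authors used Trim Galore 0.6.3, alignment STAR 2.7.9a on hg19, and they estimated expected counts and TPM per gene with RSEM 1.3.1. Both were deposited for each library, the expected counts without normalization. The labels name a 3′ library kit and the methods total stranded RNA after removal of ribosomal RNA, and whether counting used strand is not stated. A 3′ kit and total RNA weigh long transcripts differently.

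CPM was the expected count over the library total of 57820 genes. Spike-in entries (92) held no counts. Spans came from a later Gencode release lifted to GRCh37, not the one used for counting, matched for 55538 genes, and can be longer than the counted models. Expected counts were rounded, and genes above 1 CPM in at least 1 library of a set were fitted with limma 3.58.1 (voom, TMM factors from edgeR 4.0.16, R 4.3.3), all groups of a set together, with Benjamini-Hochberg adjustment. On simulated data, the CTCFAID2 comparison recovered 200 of 200 changed genes of 13503 with 8 false calls. The 6 h mean effect recovered 200 of 200 of 13576 with 17 false calls. All changed genes were given a 2-fold change, came from above a CPM level higher than the filter, and every gene had the same spread. Recovery by size of change or by CPM was not tested, so these figures do not give the power for the selected genes.

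The 73 genes, the 12 function and marker lists and the naming rule were chosen with earlier results of these data known. Named were the 12 lowest ratios, the 8 most abundant, the 6 longest and 4 shortest, the 5 on each side of the limit, the 4 lowest and highest in CTCFAID2 and the 3 lowest and highest at 6 h among those that passed, up to 3 per list, and CTCF. Other genes named in counts were chosen after their values were seen. Alternatives were DESeq2 1.42.0, edgeR's quasi-likelihood test, other scaling factors and filters, the groups compared alone, a replicate block and leaving out each library.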

Additional observations from a re-analysis of the deposited data

Results flagged for a closer look

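In groups of 4 CTCFAID2 libraries, 11 of 91 comparisons had a library far from the other 3, where chance gives about 1 in 20. DNAJC25-GNG10 stood at 5.16 CPM in untreated replicate 2, with a group median of 0.124 CPM, and CTD-2369P2.12 at 0.131 CPM in 5-Ph-IAA replicate 1, with the others at 0. Higher than their group were also FOXP2 in 5-Ph-IAA replicate 3 (11.3 CPM, median 9.67), PRKG1 in the same library (1.68, median 1.33), LRBA in untreated replicate 4 (148, median 139), DIAPH2 in the same library (40.1, median 38.2), DPYD in untreated replicate 3 (19.8, median 18.5), NELL2 in the same library (4.42, median 3.42) and NCKAP5 in untreated replicate 2 (0.406, median 0.23). Lower were PTPRD in untreated replicate 3 (3.19 CPM, median 3.58) and GUCY1A2 in 5-Ph-IAA replicate 4 (10.8, median 12). Apart from the readthrough models, these libraries differed from their group's median by a fraction of its value.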

How the results depend on the processing

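The number of selected genes was 73 and became 33 with a pseudocount of 1 CPM and 33 with a minimum of 5 CPM. Without any 1 SEM WT library it was 72 to 84, of which 64 to 71 were among the 73. For the gene span of the members, the ratio of their median to that of expressed genes was 14.97, and for exonic length it was 1.837. In CTCFAID2 cells the counts (21 lower, 14 higher) stayed within 17 to 21 and 11 to 15 under the other settings, and within 18 to 23 and 12 to 16 without any 1 library. For the 6 h mean effect (10 lower, 32 higher) the ranges were 8 to 10 and 26 to 33, and 7 to 10 and 25 to 34 without any 1 library. Single 6 h lines moved more. With no filter, 4 genes were higher in the WT line (7 in the report), 1 was lower in dZF1 (2), 9 were higher in dZF10 (14) and 0 lower in dRBR (2). With only the groups compared, dZF1 had 0 lower and 0 higher (25), and dZF10 2 lower (4) and 8 higher. DESeq2 gave 2 lower and 9 higher in dZF10 and 1 lower in dRBR, which also had 1 lower without the genes that share exons. Without any 1 library, where fewer samples alone lower the power, the WT line had 2 to 3 lower and 1 to 4 higher, dZF1 0 to 4 and 13 to 27, dZF10 1 to 3 and 6 to 9 with a median of 0.08143 to 0.1768, and dRBR 0 to 1 and 3 to 9. Same-numbered samples were not taken as pairs. Correlations of their deviations were -0.36 to 0.11 in CTCFAID2 cells and 0.06 in SEM WT cells, and at 6 h 0.32 (WT line), 0.38 (dZF10), 0.27 (dRBR) and -0.28 (dZF1), with 2 pairs a line and no shared culture or day given by the labels. With a replicate block, 4 genes were higher in the WT line, 2 lower and 7 higher in dZF10, 0 lower in dRBR, 21 lower and 12 higher in CTCFAID2, and 9 lower and 29 higher for the mean effect. Crossing the pairs in dZF1, where r was -0.28, gave 3 lower and 22 higher, as did the block. The cause of these differences was not tested. Of the values tracked for named genes 0 reversed, 86 lost their call and 16 gained one.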
